A study of Caenorhabditis elegans with 21 samples.

Results

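Transcripts of the cuticle collagen genes of *Caenorhabditis elegans* were measured by mRNA-seq of whole worms. The set was chosen by gene name: every gene called *col-* and a number, plus 18 collagen genes named for the body shape of their mutants (*dpy-2*, *dpy-3*, *dpy-4*, *dpy-5*, *dpy-7*, *dpy-8*, *dpy-9*, *dpy-10*, *dpy-13*, *dpy-17*, *rol-6*, *rol-8*, *sqt-1*, *sqt-2*, *sqt-3*, *bli-1*, *bli-2* and *lon-3*). This gave 172 of the 22840 genes in the table, 154 of them *col-* genes. Of the 172, 109 averaged 1 TPM or more (a transcript level corrected for gene length and library size) over all libraries and were tested, and 63 did not reach it. Among the 63, 17 reached 1 TPM in some library, the highest at 3.27 TPM. Of all 172 genes, 41 were listed at 0 in at least 1 library.

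The study had 21 libraries of 9 genotypes, each a population of whole animals of 1 strain. Wild type and both *pmk-1* single mutants, *pmk-1(-)* and *pmk-1(D327E)*, had 3 libraries apiece. The *pmk-1(-)* strain carries the *km25* null allele of the p38 MAP kinase gene *pmk-1*, and *pmk-1(D327E)* carries *miy7*, which makes the kinase resistant to cleavage by caspase. Each of the other genotypes had 2 libraries. They were *daf-16(mgDf50)*, a deletion of the FOXO transcription factor gene *daf-16*, *daf-16(m26)*, a splice site mutation of that gene, and the 4 double mutants *daf-16(mgDf50);pmk-1(-)*, *daf-16(mgDf50);pmk-1(D327E)*, *daf-16(m26);pmk-1(-)* and *daf-16(m26);pmk-1(D327E)*. All animals were hatched without food and fed OP50 bacteria for 48 h at 20 °C. The sample labels call the stage late L4, as judged on wild type, and the methods of the study call the animals young adults. No genotype was staged on its own in the labels.

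The cuticle is the collagen coat that the epidermis secretes, and it is rebuilt at every molt. A new set of collagen transcripts is made in waves within each molting cycle, some in every cycle and some only before a particular cuticle, such as that of the adult or the dauer larva. Cuticle collagens are cut, hydroxylated and cross-linked into layers, ring-shaped furrows and, in adults, struts. Loss of single collagens makes animals short (Dpy), rolling (Rol), blistered (Bli) or long (Lon). Since whole animals were used, fewer epidermal cells and less RNA per cell cannot be told apart.

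Depth cannot be read from TPM, which sum to the same total in every library. The transcript level of *pmk-1* itself was 10.7 to 13.9 TPM in the 7 libraries with *pmk-1(-)* and 12.7 to 16.5 TPM in the 14 others, so the ranges overlapped. A value over the whole gene does not test for an allele that leaves most of the transcript in place. The level of *daf-16* was 6.12 to 7.78 TPM in the 6 *mgDf50* libraries, 55.01 to 61.8 TPM in the 6 *m26* libraries and 41.5 to 47.4 TPM in the 9 libraries with wild-type *daf-16*. Germline genes, whose levels change with age in this period, differed between libraries of one genotype. The summed level of 28 sperm genes ran from 1452 TPM in wild type replicate 2 to 6696 TPM in *pmk-1(-)* replicate 1, with none at 0. That of 10 oocyte and eggshell genes ran from 2842 TPM in *pmk-1(-)* replicate 1 to 5394 TPM in *pmk-1(-)* replicate 2, again with none at 0.

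Wild type replicate 2 and *pmk-1(-)* replicate 2 stood apart for the collagens. Summed over the 172 genes, the collagens made up 37341, 28600 and 40097 TPM in the wild-type libraries, 46747, 27830 and 46879 TPM in *pmk-1(-)*, and 37611, 36179 and 40905 TPM in *pmk-1(D327E)*. The sums were 46045 and 31250 TPM in *daf-16(mgDf50)* and 42509 and 41010 TPM in *daf-16(m26)*. In the double mutants with *pmk-1(-)* they were 45471 and 33993 TPM for *mgDf50* and 46426 and 37893 TPM for *m26*, and in those with *pmk-1(D327E)* 43252 and 34696 TPM for *mgDf50* and 46092 and 37704 TPM for *m26*. The lowest and the highest of the 21 sums both came from *pmk-1(-)*. *daf-16(m26)* was the only mutant whose libraries all lay above the 3 wild-type ones. As a share of all TPM the collagens took 2.78% to 4.69%. *pmk-1(-)* replicate 2 held the lowest value of the 21 libraries for 71 of the 109 tested genes and wild type replicate 2 for 15. *daf-16(m26)* replicate 1 held the highest for 36 and *daf-16(mgDf50)* replicate 1 for 33.

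**Figure D1:**
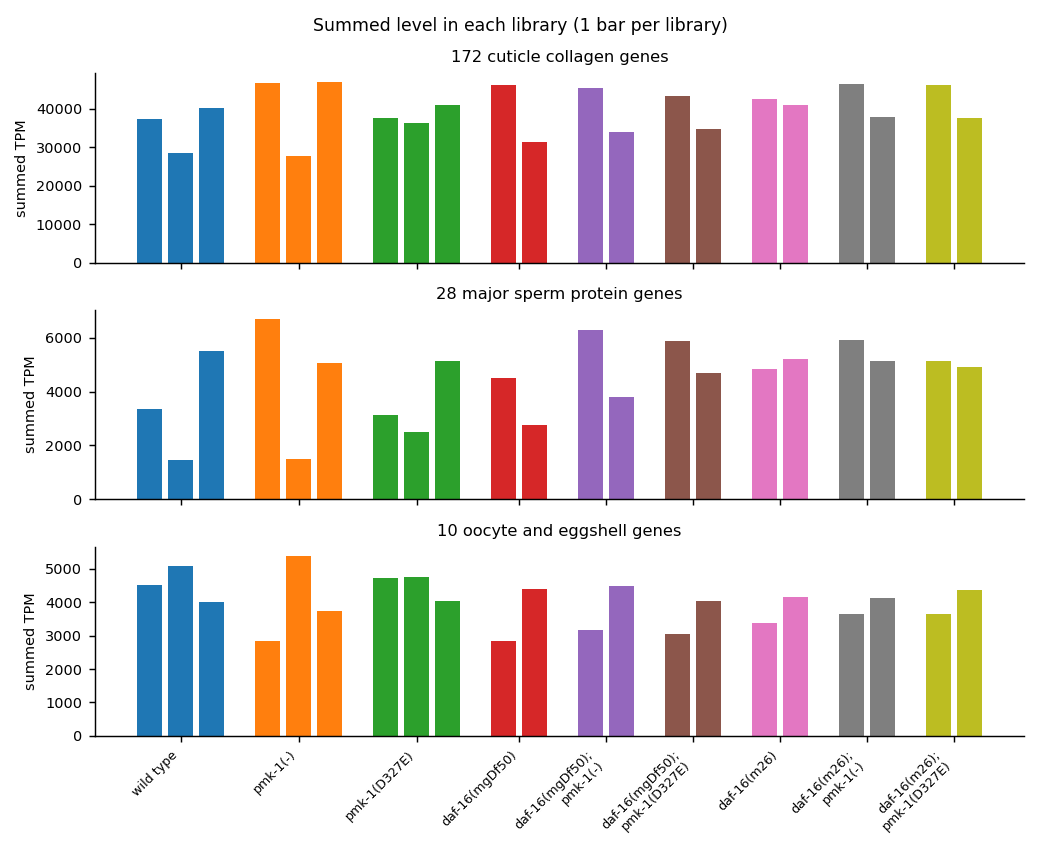
Summed TPM (y axis) of the 172 cuticle collagen genes, 28 sperm genes and 10 oocyte and eggshell genes, with 1 bar for each of the 21 libraries, grouped and coloured by genotype (x axis). The collagen sums ran from 27830 to 46879 TPM, and both ends came from *pmk-1(-)*.

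Within genotypes, replicate 1 lay above replicate 2 for most collagens. This held for 95.4% of the 109 genes in wild type, 91.7% in *pmk-1(-)*, 85.3% in *pmk-1(D327E)*, 91.7% in *daf-16(mgDf50)* and 73.4% in *daf-16(m26)*, and for 89.9% to 92.7% in the 4 double mutants. Over all 12843 genes tested, the share with replicate 1 above replicate 2 was 35.7% to 50.7%. Replicates have no order, and the labels do not say what libraries of one number shared. The collagens also varied more than other genes: the median SD of log2(TPM + 1) between libraries of one genotype was 0.24 in *pmk-1(D327E)*, the lowest, and 1.21 in *daf-16(mgDf50)*, the highest, against 0.11 to 0.31 over all genes. The part of these differences in the comparisons that follow was not tested beyond the alternatives named there.

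A few collagens carried most of the signal. The top 18, with mean levels of 1000 TPM or more, took 87.2% of the summed mean level, and 9 collagens were among the 100 highest genes of all. Another 10 genes lay between 100 and 1000 TPM and took 10.4%, 24 lay between 10 and 100 TPM and took 1.74%, and 57 lay between 1 and 10 TPM and took 0.567%. The ratio of the highest to the lowest library, on TPM + 1, had a median of 1.75 among the 18 highest genes, 4.78 in the next class, 8.59 between 10 and 100 TPM and 8.11 between 1 and 10 TPM. By these medians the ratio was smallest among the most abundant collagens, but single genes departed from them, with 1.44 for *dpy-10*, at a mean of 2.47 TPM, and 4.40 for *col-129*, which is among the top 18.

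The highest of all was *col-124*. It stood at 3767, 2960.0 and 3877 TPM in wild type, 3941, 2637 and 4337 TPM in *pmk-1(-)*, 3725, 3581 and 3906 TPM in *pmk-1(D327E)*, 3859 and 2820.3 TPM in *daf-16(mgDf50)* and 3457 and 3266 TPM in *daf-16(m26)*, and at 2981 to 3858 TPM in the double mutants. Each mutant overlapped wild type. Next came *col-140* at 2169 to 3176 TPM over the 21 libraries, *col-20* at 2025 to 3349 TPM, *col-181* at 1889.5 to 3341 TPM, *col-119* at 1989.8 to 2914 TPM and *col-122* at 1593 to 2853 TPM. The ranges of these 6 genes overlapped, so their order was not fixed beyond the spread between libraries. No role beyond that of a cuticle collagen is given here for them. *col-80* followed at 1286 to 2351 TPM and *col-184* at 1435 to 2292 TPM. *col-129* was the most variable of the 10 highest, with 1454, 761 and 1958 TPM in wild type and 3277, 744 and 2485 TPM in *pmk-1(-)*, where replicate 2 lay far under the other 2.

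*col-19*, the marker collagen of the adult cuticle, was among these 10. Its level was 2191, 1739 and 2290.4 TPM in wild type, 2464, 1694 and 2669 TPM in *pmk-1(-)*, 2175, 2195 and 2415 TPM in *pmk-1(D327E)*, 2444 and 1996 TPM in *daf-16(mgDf50)* and 2281 and 2113 TPM in *daf-16(m26)*. It was high in every library, and no genotype lay apart from wild type. *col-7*, also known as an adult collagen, was lower and far less steady, at 2.48, 0.478 and 4.25 TPM in wild type and 71.7, 0.307 and 5.39 TPM in *pmk-1(-)*. The dauer collagens *col-2* and *col-40* were near 0, at 0 to 0.317 TPM and 0 to 0.262 TPM. Of the dauer list, *col-6* was not analysed here.

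**Figure D2:**
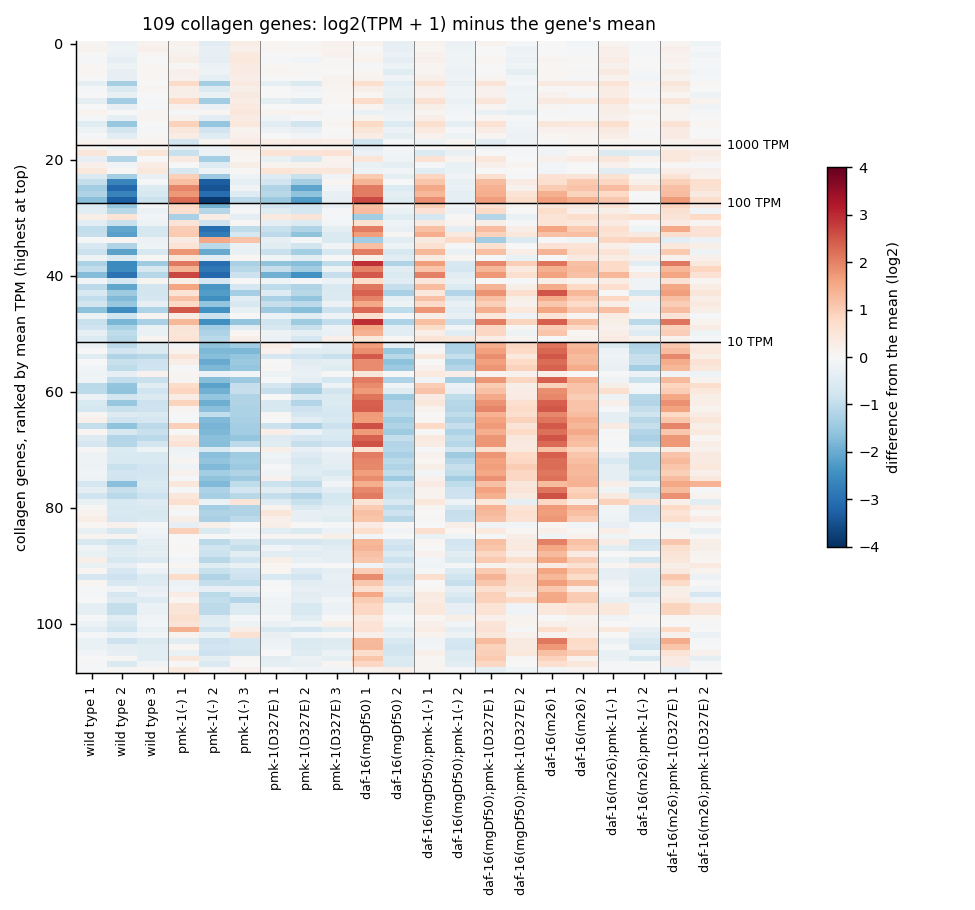
Each of the 109 tested collagen genes (rows, ranked by mean TPM with the highest at the top, lines at 1000, 100 and 10 TPM) in each of the 21 libraries (columns), as log2(TPM + 1) minus the mean of that gene. The 18 genes above the line at 1000 TPM vary least (median ratio of highest to lowest library 1.75), *pmk-1(-)* replicate 2 holds the lowest value for 71 of the 109 genes, and the first libraries of *daf-16(m26)* and *daf-16(mgDf50)* hold the highest for 36 and 33.

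The collagens of the annular furrows, the rings that encircle the body, were low. *dpy-2*, *dpy-3*, *dpy-7*, *dpy-8*, *dpy-9* and *dpy-10* are needed together for these furrows, and their loss turns on stress responses. Their summed level was 5.18 to 6.54 TPM in wild type and 4.79 to 10.6 TPM over all libraries. *dpy-10*, the highest of them, was the flattest, at 1.84 to 3.10 TPM, and *dpy-9* stood at 0.759 to 2.57 TPM and *dpy-2* at 0.523 to 2.47 TPM. These 3 passed the filter. *dpy-7*, whose loss also makes animals short, stood at 0.325 to 1.45 TPM, *dpy-8* at 0.191 to 1.78 TPM and *dpy-3* at 0.0321 to 0.778 TPM. The sums of *daf-16(m26)*, 8.98 and 9.10 TPM, and of *daf-16(mgDf50);pmk-1(D327E)*, 8.76 and 10.6 TPM, lay above those of wild type.

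The other 10 body-shape collagens were higher and more variable. They comprise *dpy-4*, *dpy-5*, *dpy-13* and *dpy-17*, whose mutants are short, *rol-6*, *rol-8*, *sqt-1*, *sqt-2* and *sqt-3*, some alleles of which make animals roll, and *lon-3*, whose loss makes them long. All 10 passed the filter. Their summed level was 16.6 to 31.9 TPM in wild type, 9.35 to 27.3 TPM in *pmk-1(-)*, 20.8 to 35.1 TPM in *pmk-1(D327E)*, 10.3 and 87.2 TPM in *daf-16(mgDf50)* and 80.2 and 125.7 TPM in *daf-16(m26)*. The lower *daf-16(m26)* library lay above all libraries of the first 3 genotypes. The strut collagens *bli-1* and *bli-2*, which form the columns of the adult cuticle, summed to 0.934 to 1.91 TPM in wild type and to 5.18 and 7.04 TPM in *daf-16(m26)*.

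*col-10*, *col-13* and *col-120*, collagens that have been tied to long life in *daf-2* mutants, were likewise low and variable. *col-13* stood at 5.31, 2.06 and 6.77 TPM in wild type, 37.3, 1.56 and 7.15 TPM in *pmk-1(-)*, 54.4 and 5.77 TPM in *daf-16(mgDf50)* and 35.3 and 21.2 TPM in *daf-16(m26)*. *col-10* stood at 5.47, 3.68 and 8.47 TPM in wild type and 21.5 and 18.1 TPM in *daf-16(m26)*, and *col-120* at 1.81, 0.889 and 1.24 TPM and 14.9 and 5.85 TPM. In each of the 3 the *daf-16(m26)* libraries lay above those of wild type, as did 15.9% of all genes.

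The 5 widest spreads between libraries of one genotype came from *pmk-1(-)* and *daf-16(mgDf50)*. In *pmk-1(-)*, *col-39* was 338, 4.05 and 33.8 TPM, *col-7* was 71.7, 0.307 and 5.39 TPM and *col-147* was 489, 10.4 and 112 TPM. In each, replicate 1 was highest and replicate 2 lowest, and the SD of log2(TPM + 1) was 3.04, 2.92 and 2.74. In *daf-16(mgDf50)*, *col-161* was 60.3 and 2.31 TPM and *col-146* was 94.8 and 4.50 TPM, with SDs of 2.98 and 2.92. The means of these genes in *pmk-1(-)* and *daf-16(mgDf50)* therefore rested on 1 high library each.

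Whether loss of *pmk-1* changed collagen transcripts was asked first in animals with wild-type *daf-16*. Comparisons were made with limma over all 21 libraries, and a gene was called at a Benjamini-Hochberg adjusted p below 0.1. No collagen was called between *pmk-1(-)* and wild type (0 of 109), where 0.631% of all genes were called. At an unadjusted p below 0.05 there were 4 collagens, against 4.65% of all genes. They were *col-98* and *col-103*, with lower means in *pmk-1(-)*, and *col-110* and *col-135*, with higher ones. Over all genes, deviations of same-numbered libraries from their genotype means correlated at 0.20, 0.86 and 0.42. Those of *pmk-1(-)* replicate 1 and wild type replicate 3 correlated at 0.77, so the numbers do not establish pairs. With the replicate number as a block, run as an alternative, all 4 were called. *col-98* then had a log2 fold change of -0.70 with an adjusted p of 0.0521, *col-103* of -0.56 with 0.0664, *col-110* of 0.76 with 0.0335 and *col-135* of 1.07 with 0.0367. Without the block, *col-135* was called when *pmk-1(-)* replicate 1 was left out, *col-98* and *col-103* when *pmk-1(-)* replicate 3 was left out, and *col-103* when wild type replicate 2, or replicate 2 of both genotypes, was left out. With the mean level of the sperm genes as a covariate *col-103* and *col-135* were called (adjusted p = 0.0882 and 0.00572). The last 2 of these alternatives were added after the data were seen. Over the alternatives the adjusted p of *col-98* ran from 0.0132 to 0.91, that of *col-103* from 0.0264 to 0.91 and that of *col-135* from 0.00572 to 0.91. Over the 109 genes the median log2 fold change was 0.13, against -0.05 over all genes.

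*col-98* was 809, 646 and 808 TPM in wild type and 316, 492 and 628 TPM in *pmk-1(-)*. All 3 *pmk-1(-)* libraries lay under the lowest wild-type one, by little for replicate 3 (log2 fold change -0.70, SE 0.18, adjusted p = 0.159 without the block). *col-103* was 583, 447 and 581 TPM in wild type and 277, 377 and 452 TPM in *pmk-1(-)*, where replicate 3 lay just above the lowest wild-type library. *col-135* was 29.7, 33.2 and 26.9 TPM in wild type and 40.1, 92.5 and 70.0 TPM in *pmk-1(-)*. All 3 *pmk-1(-)* libraries lay above the highest wild-type one. *col-110*, a collagen of low level, was 2.26, 1.57 and 1.69 TPM and 4.99, 2.29 and 4.54 TPM, and did not overlap either.

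Between caspase-resistant *pmk-1(D327E)* and wild type no collagen was called, against 0.0779% of all genes, and none was called under any alternative run. None had an unadjusted p below 0.05, against 1.03% of all genes. Of the 109 genes, 94 had a positive log2 fold change, with a median of 0.14 against -0.03 over all genes. The values ran from -0.26 for *col-135* to 0.57 for *col-39*, whose libraries overlapped between the genotypes.

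Between the 2 *pmk-1* alleles, 3 of 109 collagens were called. In *pmk-1(D327E)*, *col-98* and *col-103* rose relative to *pmk-1(-)*, where 0.833% of all genes were called higher, and *col-135* fell, where 0.249% of all genes were called lower. *col-98* was 858, 836 and 867 TPM in *pmk-1(D327E)*, above every *pmk-1(-)* library (log2 fold change 0.89, SE 0.18, adjusted p = 0.0239). *col-103* was 635, 592 and 595 TPM, again with no overlap (log2 fold change 0.75, SE 0.14, adjusted p = 0.0164). *col-135* was 24.7, 29.6 and 20.8 TPM, under every *pmk-1(-)* library (log2 fold change -1.33, SE 0.30, adjusted p = 0.0516). The study names *col-135* from these same libraries, so its change here is no independent evidence. The sperm genes summed to 2514 to 5120 TPM in *pmk-1(D327E)* and to 1487 to 6696 TPM in *pmk-1(-)*, and with their mean as a covariate the same 3 collagens were called. With the replicate number as a block the 3 were called too (adjusted p = 0.00835, 0.00815 and 0.00624). *col-110* was then also called, lower in *pmk-1(D327E)* (log2 fold change -0.98, adjusted p = 0.00378). Deviations of same-numbered libraries of these genotypes correlated at -0.32, 0.71 and 0.37 over all genes, so the numbers do not establish pairs. The 3 calls rested on few libraries. Without *pmk-1(D327E)* replicate 1 none was left, with adjusted p of 0.108 for *col-98*, 0.102 for *col-103* and 0.205 for *col-135*. Without *pmk-1(D327E)* replicate 3 only *col-103* was left, and *col-135* was lost without *pmk-1(-)* replicate 2 (adjusted p = 0.133) or replicate 3 (0.236). When only these 2 genotypes were fitted none was called, and over all alternatives the adjusted p ran from 0.00166 to 0.654 for *col-98*, from 0.00253 to 0.51 for *col-103* and from 0.00106 to 0.51 for *col-135*, with the direction kept in each.

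**Figure D3:**
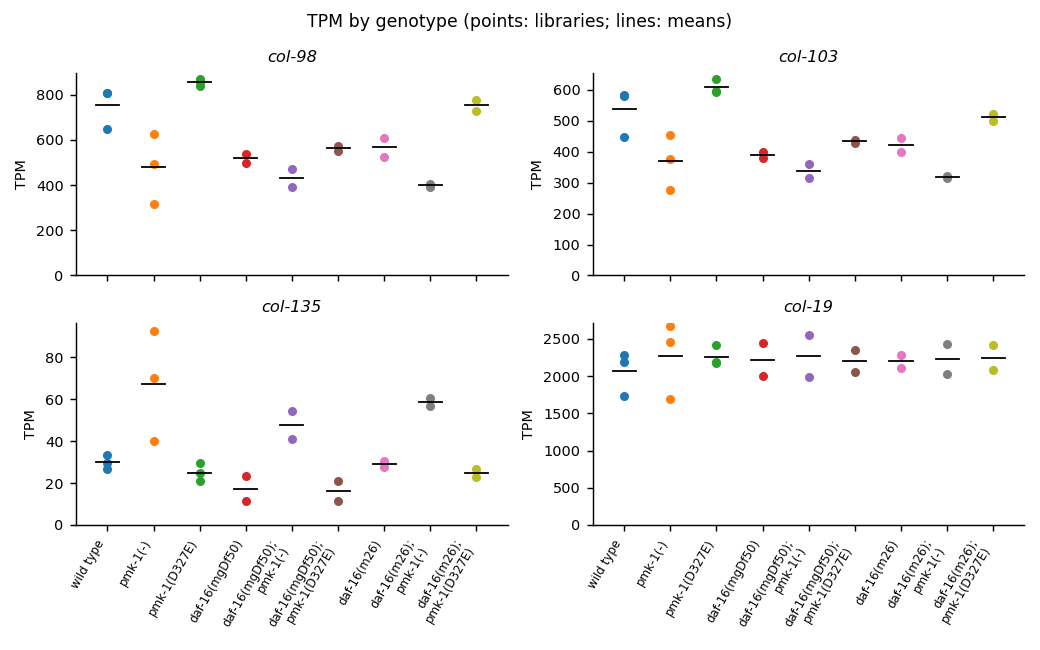
TPM (y axes, from 0) of *col-98*, *col-103*, *col-135* and the adult collagen *col-19* in the 9 genotypes (x axes), with 1 point per library and a line at the mean. *col-135* lies at 40.1 to 92.5 TPM in the 7 *pmk-1(-)* libraries and at 11.3 to 33.2 TPM in the other 14, while *col-19* overlaps throughout.

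Whether the same genes moved with *pmk-1(-)* when *daf-16* was mutant was asked in both alleles. *col-135* was 11.3 and 23.4 TPM in *daf-16(mgDf50)* and 41.0 and 54.5 TPM in its double mutant with *pmk-1(-)* (log2 fold change 1.48, SE 0.36, adjusted p = 0.178). It was 30.6 and 27.9 TPM in *daf-16(m26)* and 56.8 and 60.4 TPM in its double mutant with *pmk-1(-)* (log2 fold change 0.98, SE 0.36, adjusted p = 0.879). In both alleles the double mutant lay above the single one, and neither difference was called. For *m26* the call was gained with only both genotypes fitted (adjusted p = 0.00272) and with the sperm gene covariate (0.0893), and the adjusted p ran from 0.00272 to 1 over the alternatives. For *mgDf50* it was gained with that covariate (0.0018) and without *daf-16(mgDf50)* replicate 2 (0.0441). In the double mutants with *pmk-1(D327E)* it was 11.5 and 20.8 TPM for *mgDf50* and 22.7 and 26.5 TPM for *m26*.

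*col-98* was 499 and 539 TPM in *daf-16(mgDf50)*, 394 and 470.5 TPM in its double mutant with *pmk-1(-)* and 573 and 551 TPM in that with *pmk-1(D327E)*. With *m26* it was 525 and 609 TPM in the single mutant, 393 and 404 TPM with *pmk-1(-)* and 778 and 728 TPM with *pmk-1(D327E)*. The libraries with *pmk-1(-)* were the lowest in both alleles. *col-103*, in the same order, was 378 and 399.8 TPM, 313 and 359.7 TPM and 429 and 439 TPM with *mgDf50*, and 399 and 443 TPM, 323 and 314 TPM and 521 and 499.9 TPM with *m26*. It too was lowest with *pmk-1(-)*. Neither gene was called between the double mutants with *pmk-1(-)* and their *daf-16* single mutants. Over the alternatives the log2 fold change of *col-98* ran from -0.40 to -0.14 with *mgDf50* and from -0.61 to -0.40 with *m26*. That of *col-103* ran from -0.31 to -0.11 and from -0.48 to -0.33. Only 1 alternative gave a call, for *col-98* with *m26*.

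Against wild type, 2 of 109 collagens were called lower in *daf-16(m26);pmk-1(-)*, where 0.67% of all genes were called lower. They were *col-98* (log2 fold change -0.91, SE 0.20, adjusted p = 0.0492) and *col-103* (log2 fold change -0.74, SE 0.16, adjusted p = 0.0448). Both genes already lay under every wild-type library in both *daf-16* single mutants. Comparisons of the double mutants with wild type therefore do not separate *pmk-1(-)* from *daf-16*. Neither was called once wild type replicate 1 (adjusted p = 0.197 for both) or replicate 3 (0.193 for both) was left out, or either library of the double mutant, which took *col-98* to 0.48 and 0.359 and *col-103* to 0.378 and 0.394. With only both genotypes fitted *col-103* was lost as well (0.119). *col-135* was not called here, but was gained, higher in the double mutant, in that fit (0.0672) and with the sperm gene covariate (0.0092). Over the alternatives the adjusted p ran from 0.0408 to 0.48 for *col-98* and from 0.0223 to 0.394 for *col-103*. In *daf-16(mgDf50);pmk-1(-)* 1 collagen was called lower than in wild type, *col-103* (log2 fold change -0.66, SE 0.16, adjusted p = 0.0958), where 0.631% of all genes were called lower. That call was lost at a threshold of 0.05, without a filter (adjusted p = 0.138), after rescaling (0.149), with plain limma (0.122), with only both genotypes fitted (0.331) and on leaving out wild type replicate 1 (adjusted p = 0.341) or replicate 3 (0.272) or either library of the double mutant (0.799 and 0.253). Its adjusted p ran from 0.0458 to 0.799. *col-98* in the same comparison had an adjusted p of 0.113 and was not called. With the replicate number as a block it was called (0.0466), but only 2 same-numbered pairs exist there. Leaving out replicate 2 of both wild type and *pmk-1(-)*, the 2 libraries that stood apart, kept both calls for *m26* and the call for *mgDf50*, and it kept 2 of the 3 calls between the *pmk-1* alleles (*col-98* and *col-103*). This alternative was added after the data were seen.

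Whether loss of *daf-16* changed collagen transcripts was asked with 2 alleles. For *daf-16(mgDf50)* against wild type no collagen was called, against 0.366% of all genes. At an unadjusted p below 0.05 there were 21 of 109, of which 14 had higher means in the mutant, against 10.2% of all genes. The median log2 fold change was 0.68, against -0.01 over all genes, and 17 collagens had both mutant libraries above all 3 wild-type ones, as did 14.5% of all genes. The mutant libraries differed widely. Without *daf-16(mgDf50)* replicate 2, log2 fold changes were 1.74 for *col-48*, 3.22 for *col-60* and 2.54 for *col-63*. They were 1.56 for *col-113*, 2.57 for *col-120* and 3.40 for *col-130*. These 6 genes were picked by that fit, so they are not read as a result about the collagens. It rests on a single mutant library, which was assumed to vary like the other groups. Leaving out replicate 2 of both wild type and *pmk-1(-)* gave 1 call, *col-179*, lower in the mutant (log2 fold change -0.60, adjusted p = 0.0318). The sperm genes summed to 1452 to 5486 TPM in wild type and to 2752 and 4520 TPM in *daf-16(mgDf50)*, and the oocyte and eggshell genes to 4011 to 5085 TPM and to 2847 and 4401 TPM.

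In *daf-16(m26)* the less abundant collagens had higher means across the set. No collagen was called against wild type, where 0.195% of all genes were called, but 67 of 109 had an unadjusted p below 0.05, 66 of them with a higher mean in the mutant, against 7.23% of all genes. The lowest adjusted p among the 109 was 0.25. The median log2 fold change was 1.57, against -0.04 over all genes, and in 85 collagens both mutant libraries lay above all 3 wild-type ones, as did 15.9% of all genes. The difference lay in the less abundant genes. The median was 1.82 for the 57 genes of 1 to 10 TPM, with 47 at an unadjusted p below 0.05, 1.71 for the 24 genes of 10 to 100 TPM, with 15, and 1.04 for the 10 genes of 100 to 1000 TPM, with 5. For the 18 genes of at least 1000 TPM it was 0.15, with none. The filter and these classes use the mean over all libraries, those of *daf-16(m26)* included, which favours genes that are high there. The 109 were also required to average 1 TPM over the 16 libraries outside both genotypes, a choice made after the data were seen. Of them 108 stayed, 66 at an unadjusted p below 0.05. Members that had failed the filter could not enter, and the 16 libraries include the double mutants with *m26*. The check therefore does not remove that selection. When only wild type and *daf-16(m26)* were fitted, 29 collagens were called. The share of all genes called in that fit is not given here, so the count is not read as particular to collagens. In *daf-16(m26)* the sperm genes summed to 4840 and 5191 TPM and the oocyte and eggshell genes to 3381 and 4155 TPM, and their part in the result was not tested beyond a covariate. With the mean of the sperm genes as a covariate the count for *daf-16(m26)* stayed at 0 and that for *daf-16(mgDf50)* was 27, again without the share of all genes.

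The body-shape collagens show the pattern. *dpy-5* was 4.38, 1.85 and 2.29 TPM in wild type, 20.2 and 1.098 TPM in *daf-16(mgDf50)* and 28.8 and 15.03 TPM in *daf-16(m26)*. Both *daf-16(m26)* libraries lay above every wild-type one (log2 fold change 2.57, SE 0.78, adjusted p = 0.451), and the *daf-16(mgDf50)* libraries lay 1 above and 1 under the wild-type range. *dpy-13*, also needed for body length, was 4.55, 2.34 and 1.82 TPM in wild type, 16.3 and 0.939 TPM in *daf-16(mgDf50)* and 23.2 and 14.0 TPM in *daf-16(m26)* (log2 fold change 2.35, SE 0.75, adjusted p = 0.495). *rol-6*, the gene of the dominant roller marker, was 2.101, 0.685 and 0.804 TPM, 4.50 and 0.462 TPM and 6.85 and 4.24 TPM in the same order (log2 fold change 1.60, SE 0.46, adjusted p = 0.382). *sqt-3*, a collagen needed from the embryo on, was 5.26, 3.12 and 4.23 TPM, 8.28 and 1.76 TPM and 12.6 and 10.1 TPM (log2 fold change 1.26, SE 0.38, adjusted p = 0.427). In all 4 the same layout was seen, with 1 high and 1 low *daf-16(mgDf50)* library. Leaving out *daf-16(mgDf50)* replicate 1 turned the direction against wild type for *dpy-5* (from 0.85 to -0.82), *dpy-13* (from 0.63 to -0.95) and *rol-6* (from 0.43 to -0.53).

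*dpy-4*, *rol-8*, *sqt-1*, *sqt-2*, *lon-3* and the strut collagen *bli-2* followed them. The log2 fold changes of *daf-16(m26)* against wild type were 2.21 for *dpy-4*, 1.57 for *rol-8*, 1.92 for *sqt-1*, 1.80 for *sqt-2*, 1.37 for *lon-3* and 1.64 for *bli-2*, all without overlap. *dpy-17* was the exception among the 10, at 2.97, 3.21 and 2.62 TPM in wild type and 2.96 and 2.52 TPM in *daf-16(m26)*, with a log2 fold change of -0.07. *dpy-17* thereby resembled the furrow collagen *dpy-10*, which was 2.81, 2.76 and 1.92 TPM and 2.08 and 2.89 TPM. At the unadjusted threshold of 0.05, 9 of the 10 genes passed in *daf-16(m26)* and none in *daf-16(mgDf50)*, with medians of 1.70 and 0.41.

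**Figure D4:**
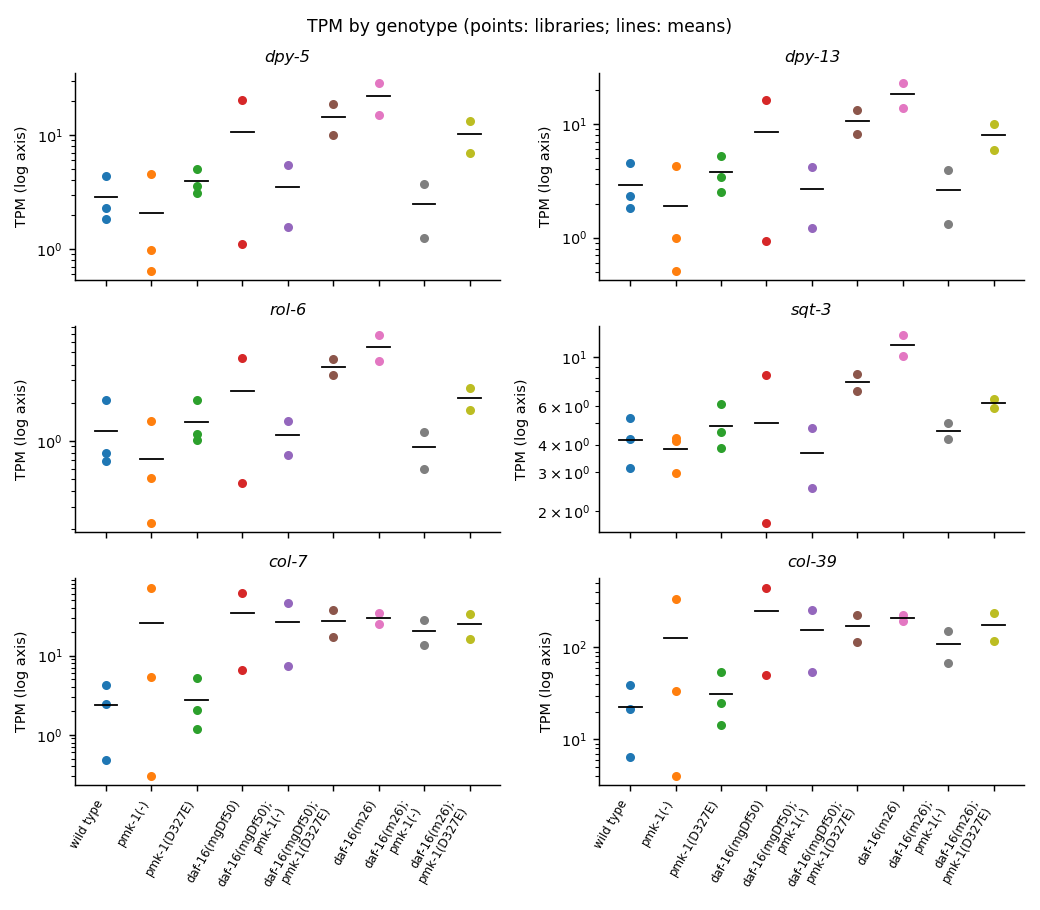
TPM (log y axes) of the body-shape collagens *dpy-5*, *dpy-13*, *rol-6* and *sqt-3* and of *col-7* and *col-39* in the 9 genotypes (x axes), with 1 point per library and a line at the mean. For *dpy-5* the *daf-16(m26)* libraries lie at 28.8 and 15.03 TPM and its double mutant with *pmk-1(-)* at 1.26 and 3.71 TPM, while the *daf-16(mgDf50)* libraries lie at 20.2 and 1.098 TPM.

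The double mutants were then set against their *daf-16* single mutants. In *daf-16(m26);pmk-1(-)* no collagen was called against *daf-16(m26)*, where 0.358% of all genes were called. At an unadjusted p below 0.05 there were 39 of 109, 38 of them with lower means in the double mutant, against 3.18% of all genes. The lowest adjusted p among the 109 was 0.188. The median log2 fold change was -0.78, against 0.04 over all genes, and in 65 collagens both double-mutant libraries lay under both single-mutant ones, as did 12% of all genes. Again the less abundant genes carried it, with 35 of the 57 genes of 1 to 10 TPM and none of the 18 of at least 1000 TPM at an unadjusted p below 0.05. Of the 109, 107 also averaged 1 TPM over the 17 libraries outside both genotypes, and 38 of these had an unadjusted p below 0.05. Members that had failed the filter could not enter, and the 17 libraries include *daf-16(m26);pmk-1(D327E)*, so this does not remove the selection by the filter. With only these 2 genotypes fitted, 24 collagens were called, and the share of all genes called in that fit is not given here. The sperm genes summed to 5132 and 5900 TPM in the double mutant and to 4840 and 5191 TPM in the single one.

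*dpy-5* was 3.71 and 1.26 TPM in *daf-16(m26);pmk-1(-)*, against 28.8 and 15.03 TPM in *daf-16(m26)* (log2 fold change -2.74, SE 0.86, adjusted p = 0.515). *dpy-13* was 3.93 and 1.33 TPM (log2 fold change -2.49, SE 0.82, adjusted p = 0.636), *rol-6* was 1.17 and 0.594 TPM (log2 fold change -1.78, SE 0.50, adjusted p = 0.376) and *sqt-3* was 4.99 and 4.26 TPM (log2 fold change -1.13, SE 0.41, adjusted p = 0.841). The higher library of each lay within the wild-type range. Of the 10 body-shape collagens, 9 had an unadjusted p below 0.05 here and the median was -1.86. *col-38*, named after its values were seen, was 34.4 and 18.7 TPM in the single mutant and 4.50 and 2.499 TPM in the double mutant, and had the lowest adjusted p of the 109 (log2 fold change -2.59, SE 0.63, adjusted p = 0.188).

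In *daf-16(mgDf50);pmk-1(-)* no collagen was called against *daf-16(mgDf50)*, where 0.405% of all genes were called, and 2 had an unadjusted p below 0.05 (*col-38* and *col-135*), against 3.35% of all genes. The median log2 fold change was -0.27, against -0.02 over all genes. *dpy-5* was 20.2 and 1.098 TPM in the single and 5.47 and 1.56 TPM in the double mutant, so the groups overlapped. Leaving out *daf-16(mgDf50)* replicate 2 gave 1 call, *col-135*, higher in the double mutant (log2 fold change 1.98, adjusted p = 0.0441). Over the alternatives its adjusted p ran from 0.0018 to 1.

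The double mutants with *pmk-1(D327E)* were set against the same single mutants. In *daf-16(mgDf50);pmk-1(D327E)* no collagen was called against *daf-16(mgDf50)*, where 0.202% of all genes were called, and 3 had an unadjusted p below 0.05 (*col-53*, *col-176* and *col-179*), against 1.72% of all genes. In *daf-16(m26);pmk-1(D327E)* none was called against *daf-16(m26)*, where 0.0467% of all genes were called, and 4 had an unadjusted p below 0.05 (*bli-2*, *rol-8*, *col-90* and *col-109*, with lower means in the double mutant), against 1.11% of all genes. *dpy-5* was 18.8 and 9.93 TPM with *mgDf50* and 13.4 and 6.93 TPM with *m26*. None was called in these 2 comparisons under any alternative run, although a p that misses the threshold does not show that the genotypes are alike.

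Against wild type, *daf-16(mgDf50);pmk-1(D327E)* had no collagen called (0.257% of all genes) and 53 at an unadjusted p below 0.05 (9.16% of all genes), 50 of them with higher means. Its median log2 fold change was 1.01, against 0.02 over all genes, and 77 collagens lay above all wild-type libraries, as did 23.5% of all genes. *daf-16(m26);pmk-1(D327E)* had none called (0.21% of all genes) and 28 at an unadjusted p below 0.05 (4.16% of all genes), all with higher means. Its median was 0.89, against -0.06 over all genes, and 74 collagens lay above all wild-type libraries, as did 9.83% of all genes. These comparisons share the wild-type libraries with those of the single mutants, so they are not separate support for one another.

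**Figure D5:**
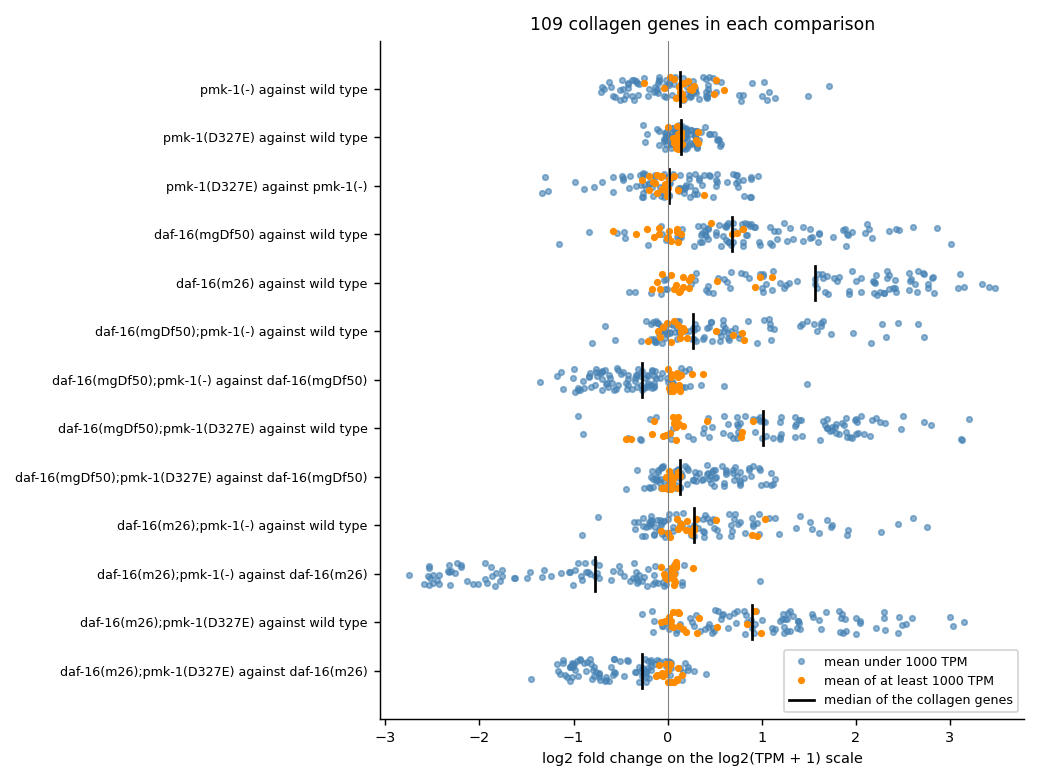
Log2 fold changes on the log2(TPM + 1) scale (x axis) of the 109 tested collagen genes in each of the 13 comparisons (y axis), with genes averaging 1000 TPM or more in orange, the others in blue and the median as a black bar. The median is 1.57 in *daf-16(m26)* against wild type and -0.78 in its double mutant with *pmk-1(-)* against *daf-16(m26)*, while the medians of the genes in orange are 0.15 and 0.07.

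The difference between the *pmk-1* effect with and without *daf-16* was tested directly as an interaction. For *pmk-1(-)* no collagen was called with *mgDf50* (0.0779% of all genes) or with *m26* (0.0156%), and for *pmk-1(D327E)* none with *mgDf50* (0.109%) or with *m26* (0.0234%). At an unadjusted p below 0.05 there were 1 and 9 collagens for *pmk-1(-)* with *mgDf50* and *m26* (1.27% and 1.32% of all genes), and none for *pmk-1(D327E)* (1.12% and 0.693%). The 9 included *rol-6* and *rol-8*, all of the 9 had negative values, and their adjusted p was 0.894. Over the 109 collagens the median interaction of *pmk-1(-)* with *m26* was -1.16, against 0.06 over all genes. No alternative run gave a call in any of the 4 interactions, so a difference in the *pmk-1* effect between *daf-16* backgrounds was not called for any collagen.

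Genes that process collagens gave no call. Of 11 in the table, all tested, none passed in any of the 13 comparisons or 4 interactions. *pdi-2*, a disulfide isomerase subunit of the collagen prolyl hydroxylase, was the highest at 355 to 531 TPM. *dpy-18*, the catalytic subunit, stood at 12.4 to 18.2 TPM and *dpy-31*, the protease that trims procollagen, at 12.99 to 26.9 TPM. The summed level of the 11 genes was 667 to 745 TPM in wild type and 709 and 730 TPM in *daf-16(m26)*. None of 6 molting factors, 7 epidermal timing factors or 2 cuticlins that were tested was called either. The summed level of the 12 molting factors in the table was 29.3 to 36.3 TPM in wild type, 34.5 and 41.5 TPM in *daf-16(mgDf50)*, 44.1 and 44.96 TPM in *daf-16(m26)* and 33.5 and 35.7 TPM in *daf-16(m26);pmk-1(-)*. Both *daf-16(m26)* sums thus lay above wild type, as for the less abundant collagens. For *mlt-8*, *noah-1* and *noah-2*, 3 of the 6 tested, the comparison of *daf-16(m26)* with wild type passed 0.05 before adjustment (log2 fold changes 1.23, 0.69 and 0.77), and the median over the 6 was 0.46. The part of the molting genes in the collagen difference was not tested. The cuticlin *cut-2*, a further component of the insoluble cuticle, was 1.86, 0.923 and 0.629 TPM in wild type, 10.3 and 0.263 TPM in *daf-16(mgDf50)* and 9.55 and 6.03 TPM in *daf-16(m26)*, so it had the layout of the body-shape collagens.

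The tested genes lay on all 6 chromosomes: 10 of 21 annotated members on I, 18 of 32 on II, 13 of 13 on III, 29 of 43 on IV, 25 of 32 on V and 14 of 29 on X. Gene order was taken from the WBcel235 annotation, used here for names and order only. Among its named protein-coding genes there were 27 pairs of direct neighbours among 47 members, 19 of them with both genes tested. In 7 of these 19 the mean levels differed over 10-fold. *col-20* stood at a mean of 2552 TPM between *col-17* at 2.80 TPM and *col-73* at 8.87 TPM, and *col-80* at 1930.3 TPM beside the strut collagen *bli-1* at 0.574 TPM. Other pairs were alike in level, such as *col-62* at 13.6 TPM and *col-7* at 20.0 TPM, or *col-34* at 11.6 TPM and *dpy-13* at 6.11 TPM. *col-62*, which the study names beside *col-135*, was 1.90, 0.604 and 2.77 TPM in wild type and 49.7, 0.675 and 6.37 TPM in *pmk-1(-)*, with replicate 1 far above the rest, and it was not called in any comparison. 2 pairs had the same value in every library, *col-3* with *col-117* (0.194 to 3.65 TPM) and *col-126* with *col-127* (at most 0.158 TPM), so the 109 tested genes held 108 distinct profiles and the members of such a pair cannot be told apart here.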

How the data were processed

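The submitters' processing notes name FastQC 0.11.2, STAR 2.5.3a, Picard 2.10 and featureCounts of Subread, with genome build ce10. Per the study's methods, reads were trimmed, duplicates removed and reads counted over RefSeq genes. The deposited table holds TPM, which the authors made from those counts. The other deposited tables hold the authors' own comparisons (fold changes and p-values) and were not used. Sequences of the genes are not analysed here.

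Values were tested as log2(TPM + 1) for genes averaging 1 TPM or more, with limma 3.58.1 in R 4.3.3 (trend and robust estimation), in one fit of 9 genotypes without a block. P-values were adjusted over the 12843 genes tested by the Benjamini-Hochberg procedure and called below 0.1, the threshold of the study. A fold change on this scale understates that of low genes. The study calls the libraries biological replicates, and p-values measure the spread between them. Intervals and floors need counts and are not given. The code was tested on simulated data.

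For *pmk-1(-)* and wild type, deviations from the genotype means of libraries with the same number correlated at 0.20, 0.86 and 0.42 over genes. *pmk-1(-)* replicate 1 and wild type replicate 3 correlated at 0.77, so the numbers do not establish pairs, and the block stayed an alternative. Both *daf-16(mgDf50)* with *pmk-1(-)* titles give replicate 1, and the library names were used to number them. The genes named were the 18 shape-named collagens, the adult, dauer and longevity collagens and those listed by the study, the 10 with the highest mean, the 5 most variable within a genotype and those called without overlap (at most 5 in each direction); others were named after their values were seen. Members and lists were chosen with earlier results of these data known. Alternatives were a pseudocount of 0.1, no filter, a threshold of 0.05, rescaled libraries, a replicate block, plain limma, only the genotypes compared, and each library left out; a sperm gene covariate and leaving out 2 libraries were added after the data were seen.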

Additional observations from a re-analysis of the deposited data

How the results depend on the processing

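Counts of collagens called were recomputed for the 17 comparisons and interactions. With the replicate number as a block the counts were 4 for *pmk-1(-)* against wild type, 58 for *daf-16(mgDf50)*, 79 for *daf-16(m26)*, 35 for *daf-16(mgDf50);pmk-1(-)*, 85 for *daf-16(mgDf50);pmk-1(D327E)*, 4 for *daf-16(m26);pmk-1(-)* and 3 for *daf-16(m26);pmk-1(D327E)*, each against wild type. They were 2 (*col-135* among them, adjusted p = 0.022) and 30 for the double mutants with *pmk-1(-)* against *daf-16(mgDf50)* and *daf-16(m26)*. For *pmk-1(D327E)* against *pmk-1(-)* the block kept the 3 calls and added *col-110*. The labels give libraries of one number nothing but that number in common. Except for *pmk-1(-)* against wild type, where the numbers do not establish pairs, no 3 pairs exist to check it. Over all genes, deviations of same-numbered libraries correlated at 0.12 to 0.70 in the 6 comparisons of *daf-16* mutants with wild type. In the 4 of double with single mutants they correlated at 0.34 to 0.76. Over the tested collagens alone the ranges were -0.12 to 0.68 and 0.65 to 0.88. With the sperm gene covariate, added after the data were seen, the counts against wild type were 2 for *pmk-1(-)*, 27 for *daf-16(mgDf50)* and 4 for its double mutant with *pmk-1(-)*, and against *daf-16(mgDf50)* and *daf-16(m26)* they were 3 and 4 for the double mutants with *pmk-1(-)*. Without both replicate 2 libraries of wild type and *pmk-1(-)*, also added, *pmk-1(-)* and *daf-16(mgDf50)* had 1 each against wild type. With only the genotypes compared in the fit, the counts were 0 for *pmk-1(D327E)* against *pmk-1(-)*, 29 for *daf-16(m26)* against wild type and 24 for its double mutant with *pmk-1(-)* against it. Without a filter they were 1 for *daf-16(mgDf50)* and 2 for *daf-16(m26)* against wild type, and 1 and 2 for the double mutants with *pmk-1(-)* against these. The 1 call in *daf-16(mgDf50);pmk-1(-)* against wild type went to 0 at an adjusted p below 0.05, without a filter, after rescaling, with limma without trend and robust estimation and with only the genotypes compared. Shares of all genes called under these alternatives are not given here, so no count is read as particular to the collagens. The cause of these shifts was not tested.

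Leaving out 1 library at a time gave 0 to 2 calls for *pmk-1(-)*, 0 to 6 for *daf-16(mgDf50)*, 0 to 1 for *daf-16(mgDf50);pmk-1(-)* and 0 to 2 for *daf-16(m26);pmk-1(-)* against wild type, 0 to 3 for *pmk-1(D327E)* against *pmk-1(-)* and 0 to 1 for *daf-16(mgDf50);pmk-1(-)* against *daf-16(mgDf50)*. A group left with 1 library was assumed to vary like the others. Shares of all genes called are not given here either, so these counts are not read as particular to the collagens. Of 418 alternative values of the single genes followed, 354 kept their direction and side of the threshold, 28 lost a call, 31 gained one and 5 reversed. The reversals were all in *daf-16(mgDf50)* against wild type: *dpy-5* (-0.82), *dpy-13* (-0.95) and *rol-6* (-0.53) without *daf-16(mgDf50)* replicate 1, with highest values of 2.52, 2.21 and 1.38 without its replicate 2, and *sqt-3*, with log2 fold change -0.02 from all libraries, at 0.13 without wild type replicate 1, 0.86 without *daf-16(mgDf50)* replicate 2 and -0.89, the lowest, without its replicate 1.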

Other observations

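The basement membrane collagens *emb-9* and *let-2*, which encode type IV collagen chains and are made by other tissues than the epidermis, were not called in any comparison. *emb-9* was 84.3, 61.1 and 102.8 TPM in wild type, 186, 65.1 and 98.9 TPM in *pmk-1(-)*, 141.9 and 126 TPM in *daf-16(mgDf50)* and 127 and 141.9 TPM in *daf-16(m26)*. *let-2* was 124, 89.8 and 147 TPM, 279, 97.8 and 146 TPM, 209 and 180.0 TPM and 188 and 207 TPM in the same order. In both genes *pmk-1(-)* replicate 1 was the highest of all 21 libraries, and each library of the *daf-16* single mutants lay above each wild-type one. Of all genes, 14.5% lay above wild type in this way in *daf-16(mgDf50)* and 15.9% in *daf-16(m26)*.

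Summed levels of 5 body wall muscle markers were 898 to 1527 TPM in wild type, 925 to 2220 TPM in *pmk-1(-)* and 1611 and 1631 TPM in *daf-16(m26)*, and those of 4 intestine markers were 553 to 704 TPM, 540.2 to 1148 TPM and 705 and 946 TPM. Neuron markers were steadier, at 208 to 258 TPM over the 21 libraries. Summed levels of 4 osmotic response genes, which are known to rise when annular furrow collagens are lost, were 141 to 168 TPM in wild type and 159 and 281 TPM in *daf-16(m26)*. None of these genes was called in any comparison. Whether any of these levels bears on the collagens was not tested.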
